A study of Mus musculus with 8 samples.

Results

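Toll-like receptors are the pattern-recognition receptors through which macrophages, dendritic cells, neutrophils, B cells and some epithelial cells detect microbial products and molecules released by damaged cells. The genes described here are Tlr1 to Tlr9 and Myd88, the adaptor gene through which most of these receptors signal. They were chosen by name, and all 10 had a row among the 693 genes measured. They were followed in 8 whole tumours of 4MOSC1, a line of oral squamous cell carcinoma from mouse, implanted buccally in C57BL/6N females aged 4 to 6 weeks. The 4 CXCL10 tumours had received 10 µg of the chemokine CXCL10 in 50 µl of phosphate-buffered saline by injection into the tumour on days 3, 6 and 9, and the 4 vehicle tumours 50 µl of the saline alone. CXCL10 is a ligand of the receptor CXCR3, which is carried by activated T cells and NK cells. The titles place all 8 tumours at day 10, whereas the source names give days 14 to 17 for CXCL10 tumours 1 to 4 and days 10 to 13 for vehicle tumours 1 to 4. The titles were followed here, and by the source names day and treatment could not be told apart. All animals shared the strain and sex, and 4MOSC1 is 1 line, so the groups stand for 1 tumour model. Whether every tumour had a mouse to itself is not stated, and the p-values therefore describe spread among these 8 tumours only, which may be partly technical.

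Levels are log2 normalized probe counts, and each difference is CXCL10 minus vehicle on that log2 scale. Whole counts recovered from the levels summed to between 1028938 and 1167694 in CXCL10 tumours and between 973697 and 1021358 in vehicle tumours. Epcam and Cdh1, surface genes of epithelial cells (Cdh1 was picked after its values were seen), averaged 11.85 ± 0.16 and 12.21 ± 0.17 in CXCL10 tumours, against 11.51 ± 0.21 and 12.17 ± 0.045 in vehicle tumours (SD, n = 4 each), so epithelial RNA was present in both groups. How much of it came from carcinoma cells was not tested. In RNA of whole tumours, fewer cells of a type and less RNA per cell cannot be told apart. Probes bind with different efficiency, so the level of 1 gene is not set against that of another.

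As background, the receptors fall into classes by where they meet their ligands. TLR1, TLR2, TLR4, TLR5 and TLR6 sit at the cell surface. TLR2 pairs with TLR1 or TLR6 to bind bacterial lipopeptides, TLR4 binds lipopolysaccharide together with MD-2, and TLR5 binds flagellin. TLR3, TLR7, TLR8 and TLR9 lie in endosomes and bind nucleic acids: double-stranded RNA for TLR3, single-stranded RNA for TLR7 and TLR8, and unmethylated CpG DNA for TLR9. All of them except TLR3 use MyD88, which recruits IRAK kinases and leads to NF-kB activation and cytokine genes. TLR3 uses the adaptor TRIF, encoded by Ticam1. In the RefSeq gene table of GRCm38.p6, Tlr1 and Tlr6 were direct neighbours, with 0 genes between their starts, and so were Tlr7 and Tlr8.

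To look at what lies upstream of these genes, the 250 bases before the annotated starts were read from RefSeq, which held windows for 8 of the 10 genes. Windows are shown for Myd88 and Tlr3, whose profiles across the 8 tumours were the closest pair of the 10 genes, and for Tlr6 and Tlr2, the genes next closest to Myd88. All 4 genes were above their mean in both CXCL10 tumour 4 and vehicle tumour 2, which does not set them apart. Vehicle tumour 2 was above the mean for all 10 genes and CXCL10 tumour 4 for 8 of them, against 55.8% and 70.7% of the panel. Capitals mark matches, on either strand, to the core of the interferon-stimulated response element (GAAA, any NN, GAAA) or to the NF-kB consensus. The windows are from GRCm38.p6, minus strand, at chr9:119340019-119340268 for Myd88, chr8:45410381-45410630 for Tlr3, chr3:83841609-83841858 for Tlr2 and chr5:64959167-64959416 for 1 of 2 annotated starts of Tlr6, and are written 5′ to 3′.
Myd88: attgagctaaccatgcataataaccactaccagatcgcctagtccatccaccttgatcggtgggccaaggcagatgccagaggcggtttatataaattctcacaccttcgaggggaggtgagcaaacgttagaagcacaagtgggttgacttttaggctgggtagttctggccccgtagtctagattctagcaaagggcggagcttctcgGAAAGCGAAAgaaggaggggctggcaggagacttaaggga
Tlr3: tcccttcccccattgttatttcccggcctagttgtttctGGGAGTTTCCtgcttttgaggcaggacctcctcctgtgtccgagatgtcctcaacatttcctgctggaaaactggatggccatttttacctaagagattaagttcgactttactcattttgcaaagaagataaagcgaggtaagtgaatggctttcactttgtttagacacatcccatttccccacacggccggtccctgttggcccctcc
Tlr2: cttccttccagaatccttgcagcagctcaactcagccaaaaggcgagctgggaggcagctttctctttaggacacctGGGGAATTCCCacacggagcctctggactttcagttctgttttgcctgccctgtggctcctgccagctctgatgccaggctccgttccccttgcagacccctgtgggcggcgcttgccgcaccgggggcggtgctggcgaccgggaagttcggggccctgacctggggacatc
Tlr6: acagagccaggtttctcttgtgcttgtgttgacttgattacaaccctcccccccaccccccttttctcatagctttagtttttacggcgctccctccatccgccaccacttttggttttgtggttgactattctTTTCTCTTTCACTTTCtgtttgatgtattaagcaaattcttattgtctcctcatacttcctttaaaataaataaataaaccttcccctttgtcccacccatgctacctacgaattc

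The Myd88 window held 1 match to the interferon element, which starts 40 bases before the annotated start. The Tlr6 window held 2 overlapping ones, starting 116 and 110 bases before, and the window at its other start held 0. NF-kB matches began 211 bases before the start in Tlr3 and, overlapping, 173 and 172 bases before it in Tlr2. Of the 10 windows of these genes, 2 held the interferon element core and 2 the NF-kB consensus, and these are the windows shown. The windows of Tlr1, Tlr5, Tlr8 and Tlr9 held neither. Whether a match goes with a profile was not tested. Among all 32851 promoter windows of this length, 2.98% held the interferon element core and 3.90% the NF-kB consensus. The PU.1 core GAGGAA, also searched for, was present in 3 of the 10 windows of these genes (in Tlr1, Tlr8 and Tlr9, not shown) and in 23.3% of all windows. A match describes letters and not a bound site.

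None of the 10 genes passed the test between CXCL10 and vehicle tumours. The differences ran from -0.21 for Tlr9 to 0.26 for Tlr4, and all 10 intervals of 95% held 0. In linear terms those intervals reached no lower than 0.694-fold (Tlr2) and no higher than 1.65-fold (Tlr4). The limma test, with Benjamini-Hochberg adjustment over all 693 genes, gave the 10 genes adjusted p from 0.386 to 0.986. It called 0 of the 10, where 0.289% of the panel was called. At an unadjusted p under 0.05 it also gave 0 of 10, where the panel gave 19.0%. The CXCL10 and vehicle tumours overlapped for every one of the 10 genes, whereas the groups did not overlap for 10.8% of the panel (7.79% higher and 3.03% lower after CXCL10). Ranked by p among the 693 genes, the 10 stood between place 218 (Tlr7) and place 680 (Tlr2). An exact two-sided permutation test of each gene gave p from 0.0857 to 1.0, where 4 tumours against 4 can go no lower than 0.0286.

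**Figure D1:**
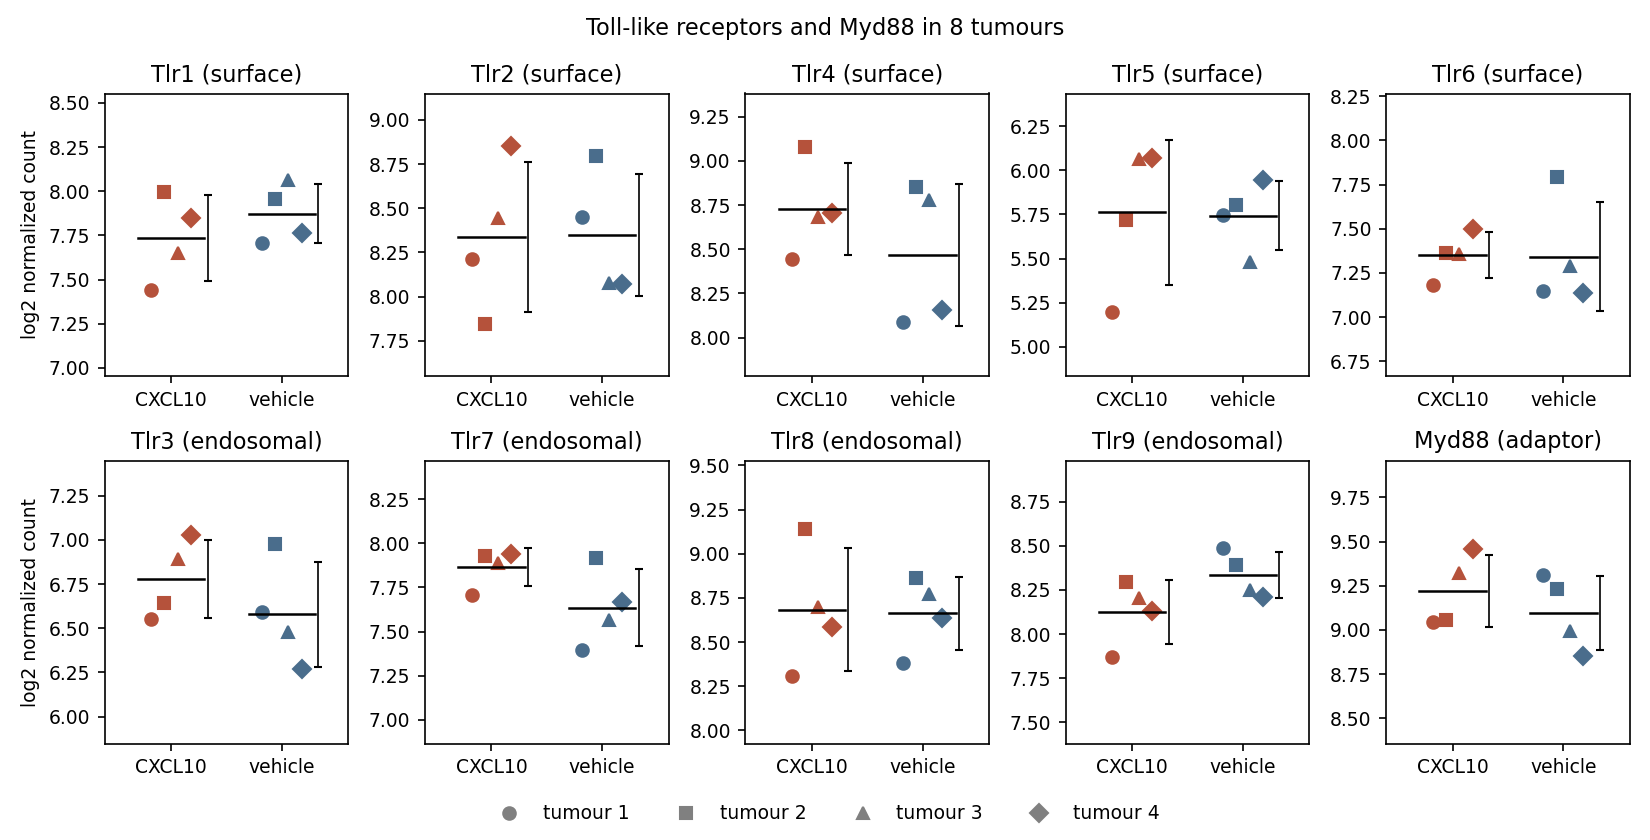
Log2 normalized count (vertical axis, each panel spanning the same range of log2 units) of the 10 genes in the 4 CXCL10 tumours (left, red) and the 4 vehicle tumours (right, blue). Marker shapes give the tumour number within a group and pair no tumours, horizontal lines are group means and bars the SD. The groups overlap in every panel, and CXCL10 tumour 4 holds the highest value for 5 of the 10 genes.

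**Figure D2:**
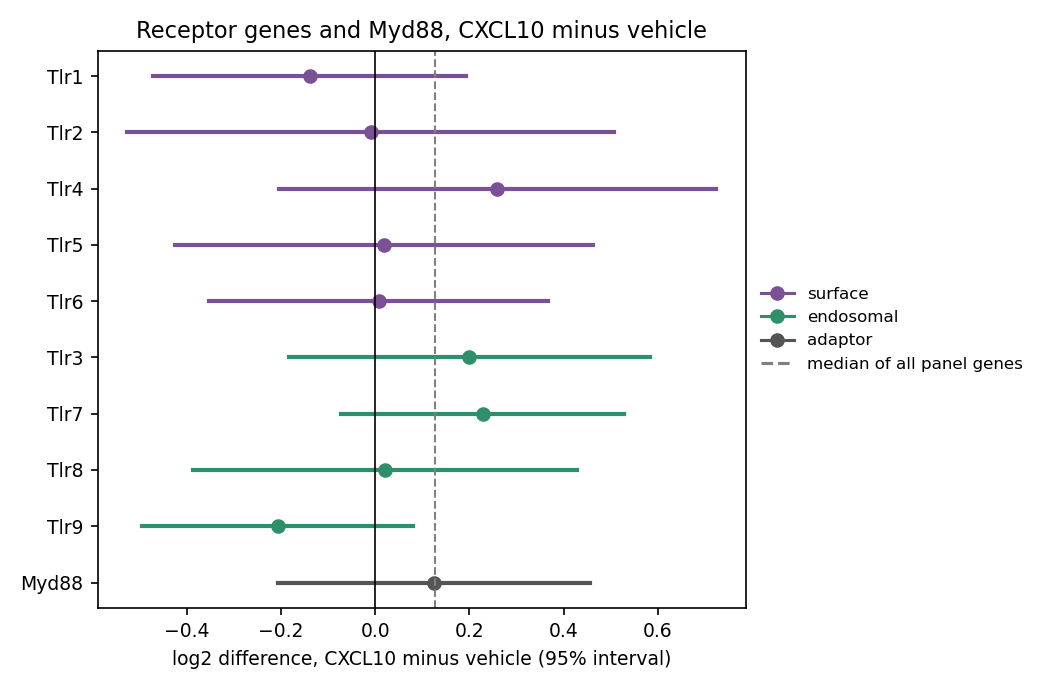
Log2 difference, CXCL10 minus vehicle, of each gene with its 95% interval from limma (horizontal axis). Colours mark surface receptors, endosomal receptors and the adaptor, and the dashed line is the median difference of all 693 genes, 0.13. Every interval crosses 0, and Tlr7 and Tlr9 lie on opposite sides with the intervals that reach least far past 0.

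Among the surface receptors, Tlr4 (Entrez 21898), the lipopolysaccharide receptor gene, had the largest difference. Its levels were 8.44, 9.08, 8.68 and 8.70 in CXCL10 tumours 1 to 4, against 8.09, 8.85, 8.78 and 8.16 in vehicle tumours 1 to 4. Vehicle tumours 1 and 4 were the lowest of all 8, and vehicle tumours 2 and 3 lay inside the CXCL10 range. The means were 8.73 ± 0.26 and 8.47 ± 0.40 (SD, n = 4 each), with a difference of 0.26 (SE 0.21). That difference was 0.39 without vehicle tumour 2 and 0.13 without vehicle tumour 1. TLR4 signals together with MD-2, encoded by Ly96, and with CD14. Both genes are named here after their values were seen. Ly96 stood at 0.32 (SE 0.13) and Cd14 at -0.29 (SE 0.19), with limma adjusted p of 0.223 and 0.428.

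Tlr2 (Entrez 24088), the shared partner of the lipopeptide receptors, had the widest spread of the 10. Its levels were 8.21, 7.84, 8.44 and 8.85 in CXCL10 tumours, against 8.45, 8.79, 8.08 and 8.07 in vehicle tumours. The highest and the lowest of all 8 values were both CXCL10 tumours, numbers 4 and 2. Group means were nearly equal at 8.34 ± 0.42 and 8.35 ± 0.35 (SD, n = 4 each), a difference of -0.0094 (SE 0.23) whose sign changed when CXCL10 tumour 1 or 2 or vehicle tumour 1 or 2 was left out. The partner genes follow. Tlr6 (Entrez 21899) had levels of 7.18, 7.36, 7.36 and 7.50 in CXCL10 tumours, against 7.15, 7.79, 7.29 and 7.14 in vehicle tumours, where tumour 2 stood highest of all 8. Its difference was 0.0078 (SE 0.16), and it was 0.16 without vehicle tumour 2. Tlr1 (Entrez 21897) had levels of 7.44, 8.0, 7.65 and 7.85 in CXCL10 tumours, against 7.71, 7.96, 8.07 and 7.77 in vehicle tumours. CXCL10 tumour 1 was the lowest of all 8 for Tlr1, and the mean difference was -0.14 (SE 0.15), or -0.042 without that tumour.

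Tlr5 (Entrez 53791), the flagellin receptor gene, was read from the fewest counts, 40 to 71 per tumour. Levels were 5.20, 5.72, 6.06 and 6.07 in CXCL10 tumours, against 5.75, 5.80, 5.48 and 5.95 in vehicle tumours. The CXCL10 tumours spanned more than the vehicle tumours, with CXCL10 tumour 1 at the bottom and tumours 3 and 4 at the top. Counting error alone amounts to 0.19 log2 per CXCL10 tumour and 0.20 per vehicle tumour for this gene, beside measured SDs of 0.41 and 0.19 (n = 4 each). The difference was 0.019 (SE 0.20), and it was 0.21 without CXCL10 tumour 1. For Myd88, with 450 to 724 counts, counting error was 0.058 and 0.063 log2 in CXCL10 and vehicle tumours.

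The endosomal receptors held the 2 genes of smallest p among the 10, and these pointed in opposite directions. Tlr7 (Entrez 170743), a receptor gene for single-stranded RNA, had levels of 7.71, 7.93, 7.89 and 7.94 in CXCL10 tumours, against 7.39, 7.92, 7.56 and 7.67 in vehicle tumours. Vehicle tumour 2 lay among the CXCL10 tumours and the other 3 vehicle tumours lay below them all. The means were 7.86 ± 0.11 and 7.64 ± 0.22 (SD, n = 4 each). Of the 16 pairs of a CXCL10 and a vehicle tumour, the CXCL10 tumour was higher in 14. The difference of 0.23 (SE 0.14, 95% interval -0.072 to 0.53) had a limma adjusted p of 0.386 and an exact permutation p of 0.0857. Without vehicle tumour 2 it was 0.32, with an unadjusted limma p of 0.0377 and an adjusted p of 0.204.

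Tlr9 (Entrez 81897), the receptor gene for CpG DNA, had levels of 7.87, 8.30, 8.20 and 8.13 in CXCL10 tumours, against 8.49, 8.39, 8.25 and 8.21 in vehicle tumours. CXCL10 tumours 1, 3 and 4 lay below all vehicle tumours, tumour 3 by less than 0.01, and CXCL10 tumour 2 lay within their range. The CXCL10 tumour was higher in 2 of the 16 pairs. The means were 8.13 ± 0.18 and 8.33 ± 0.13 (SD, n = 4 each), a difference of -0.21 (SE 0.13, 95% interval -0.50 to 0.081) with a limma adjusted p of 0.407 and an exact permutation p of 0.114. The median of all 693 differences was 0.13 on the authors' scaling, so Tlr9 lay further from the middle of the panel than from 0. Of the panel, 9.96% of genes had a more negative difference. Scaling by median of ratios, centring on the panel median, and quantile normalization put the difference of Tlr9 at -0.31, -0.29 and -0.31, with unadjusted limma p of 0.0141, 0.0217 and 0.0164 and adjusted p of 0.170, 0.208 and 0.177. Which scaling is right for these tumours was not tested.

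Tlr3 (Entrez 142980), the receptor gene for double-stranded RNA, had levels of 6.55, 6.64, 6.89 and 7.03 in CXCL10 tumours, against 6.59, 6.97, 6.48 and 6.27 in vehicle tumours. Vehicle tumour 2 was the second highest of all 8, and vehicle tumour 1 also lay above CXCL10 tumour 1. The difference was 0.20 (SE 0.17), and it was 0.33 without vehicle tumour 2. Tlr8 (Entrez 170744), the neighbour of Tlr7, had levels of 8.31, 9.14, 8.70 and 8.59 in CXCL10 tumours, against 8.38, 8.86, 8.77 and 8.64 in vehicle tumours. CXCL10 tumours held both the highest value (tumour 2) and the lowest (tumour 1), and the means of 8.68 ± 0.35 and 8.66 ± 0.21 (SD, n = 4 each) differed by 0.021 (SE 0.18). The sign for Tlr8, Tlr5 and Tlr6 was negative under each of the 3 other scalings.

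Myd88 (Entrez 17874) had levels of 9.05, 9.06, 9.32 and 9.46 in CXCL10 tumours, against 9.31, 9.23, 9.00 and 8.85 in vehicle tumours. CXCL10 tumours 3 and 4 were the highest of the 8 and vehicle tumours 3 and 4 the lowest, with the other 4 in between and crossed. The means were 9.22 ± 0.20 and 9.10 ± 0.21 (SD, n = 4 each), and the difference of 0.12 (SE 0.15) lay near the median of the panel, 0.13. Its limma adjusted p was 0.669. The authors' deposited table gives each probe's coefficient of variation over the 8 lanes, 15.04% for Myd88. Among the receptors it runs from 8.82% for Tlr9 to 23.55% for Tlr2. The recovered counts, before scaling and with both groups together, reproduce it, so it is not a spread of the normalized levels.

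Surface and endosomal receptors were then set side by side. The median difference was 0.0078 over the 5 surface receptors, of which 3 had higher means, and 0.11 over the 4 endosomal receptors, of which 3 had higher means. For the 10 genes together it was 0.020, with 7 higher (4 under each of the 3 other scalings), beside 0.13 and 482 of 693 higher (69.6%) for the panel. Under the 3 other scalings the median ran from -0.12 to -0.072 for surface receptors and from -0.0012 to 0.031 for endosomal receptors, and the median of the panel moved to between 0.012 and 0.047. With 1 tumour left out at a time it ran from -0.083 to 0.14 for surface receptors and from 0.038 to 0.21 for endosomal receptors.

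Each tumour's mean deviation over a class, taken gene by gene from the mean of the 8 tumours, overlapped between the groups for both classes. For the surface receptors it was -0.27, 0.030, 0.071 and 0.23 in CXCL10 tumours 1 to 4, against -0.14, 0.27, -0.031 and -0.15 in vehicle tumours 1 to 4. For the endosomal receptors it was -0.22, 0.17, 0.088 and 0.087 in CXCL10 tumours, against -0.12, 0.20, -0.067 and -0.14 in vehicle tumours. CXCL10 tumour 1 was the lowest and vehicle tumour 2 the highest of the 8 for both classes. Endosomal minus surface deviation was 0.016 ± 0.12 in CXCL10 tumours and -0.016 ± 0.043 in vehicle tumours (SD, n = 4 each), a gap smaller than the spread between CXCL10 tumours. No test was run on these class means, since the genes were chosen with earlier results of these data known.

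**Figure D3:**
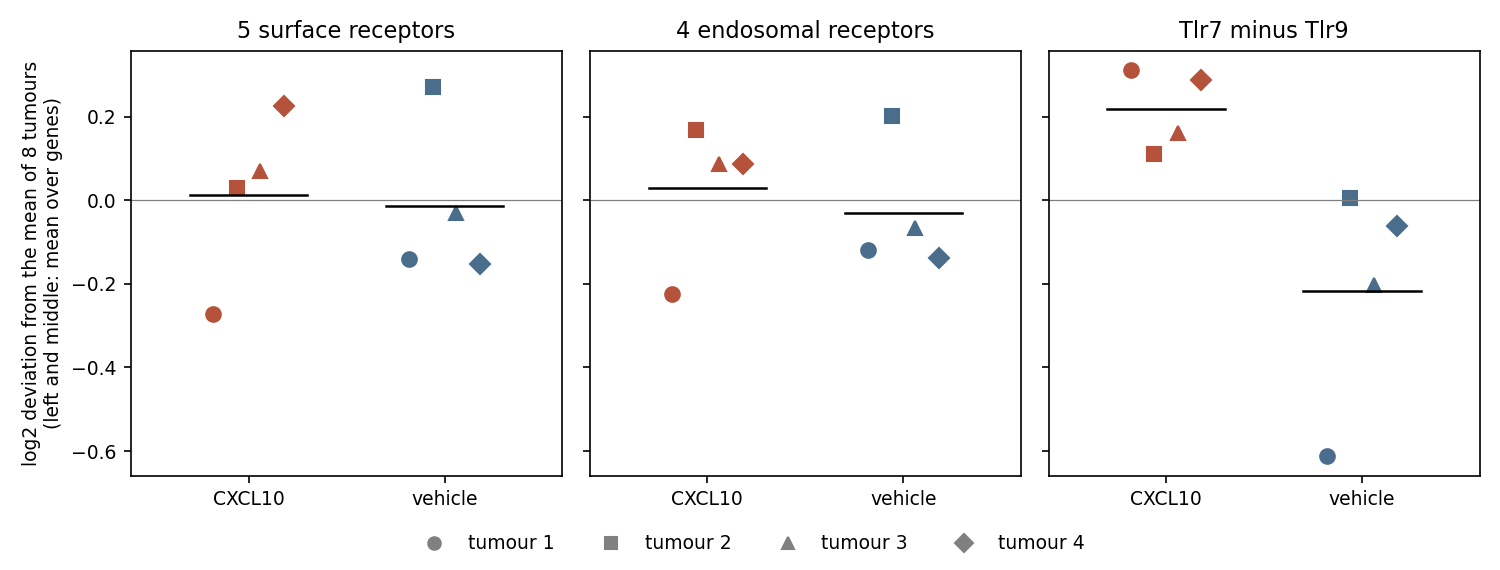
Log2 deviation from the mean of 8 tumours (vertical axis) for the mean of the 5 surface receptors, the mean of the 4 endosomal receptors and the difference Tlr7 minus Tlr9, in CXCL10 (left, red) and vehicle tumours (right, blue). Lines are group means. The class means overlap between groups, and Tlr7 minus Tlr9 lies above 0.1 in all 4 CXCL10 tumours and below 0.01 in all 4 vehicle tumours.

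A difference between 2 genes within a tumour does not depend on how whole tumours are scaled. Among the 45 pairs that the 10 genes form, 1 pair separated the groups, whereas 10.5% of all 239778 gene pairs of the panel did. That pair was Tlr7 and Tlr9, which was picked out after its values were seen and is therefore given with no test. Tlr7 minus Tlr9, centred on its mean of the 8 tumours, was 0.31, 0.11, 0.16 and 0.29 in CXCL10 tumours, against -0.61, 0.0055, -0.20 and -0.061 in vehicle tumours. All 4 CXCL10 tumours lay above all 4 vehicle tumours, and vehicle tumour 1 alone lay far below the rest. A share of 1 in 45 is below the share of the panel.

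The 10 genes did not vary together across tumours as 1 block. CXCL10 tumour 1 was below the mean for all 10 genes and lowest of the 8 tumours for 4 of them (Tlr1, Tlr5, Tlr8 and Tlr9). Of the panel, 27.4% of genes lay above their mean in that tumour and 13.4% were lowest there. Vehicle tumour 2 was above the mean for all 10, against 55.8% of the panel. CXCL10 tumour 4 held the highest value for 5 genes (Tlr2, Tlr3, Tlr5, Tlr7 and Myd88), against 33.3% of the panel, and CXCL10 tumour 2 for Tlr4 and Tlr8, against 34.3% of the panel. CXCL10 tumour 2 split the genes most, with Tlr4 and Tlr8 0.48 and 0.47 above their means and Tlr2 0.50 below its own.

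**Figure D4:**
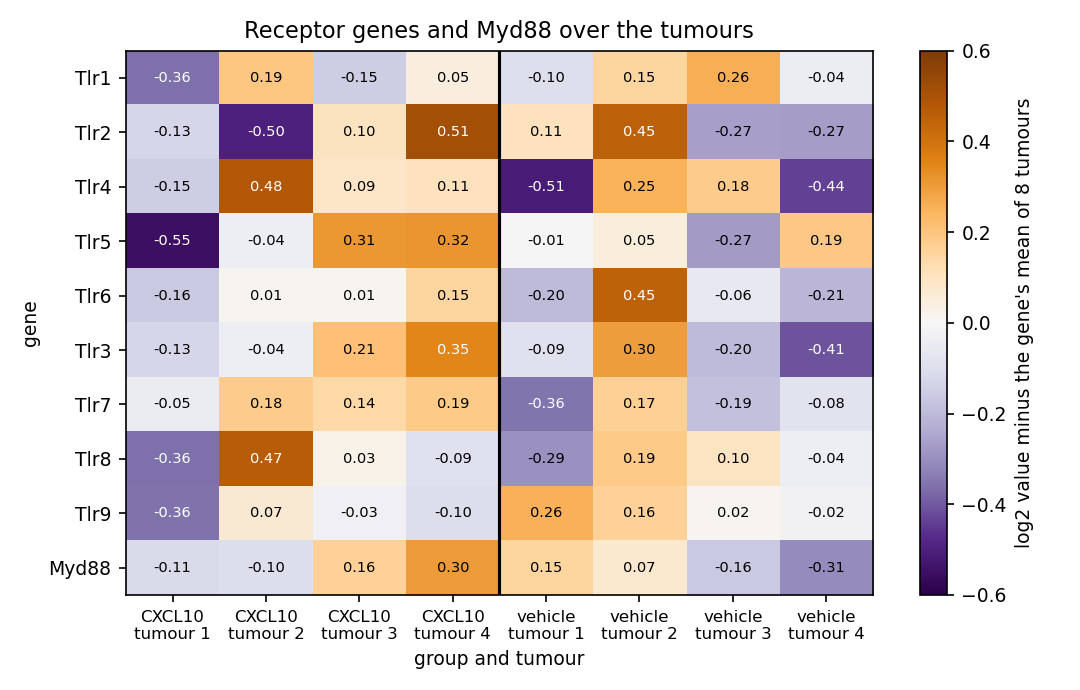
Log2 value of each gene minus its mean of the 8 tumours, in CXCL10 tumours (left of the line) and vehicle tumours (right of the line). Orange is above and purple below the mean, with the value printed in each cell. Vehicle tumour 2 is above the mean in every row and CXCL10 tumour 1 below it in every row, while CXCL10 tumour 2 holds both a high Tlr4 and a low Tlr2.

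Likeness of profiles was measured as the root mean square difference, over the 8 tumours, between the log2 values of 2 genes each centred on its own mean. It is a description over tumours that share their scaling. Among the 10 genes the closest pair was Tlr3 and Myd88, at 0.13, followed by Tlr6 and Tlr3 at 0.15 and Tlr1 and Tlr8 at 0.15. Over the whole panel, the genes closest to Myd88 were Nod2 (0.071), Icam1 (0.080) and Tap1 (0.084), and those closest to Tlr3 were Prdm1 (0.10), Tnfsf18 (0.10) and Nod2 (0.11). Nod2, an intracellular sensor of bacterial peptidoglycan, was thus among the 3 closest of both.

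Near the surface receptors, the closest to Tlr4 were Jak2 (0.083), Clec7a (0.12) and Msr1 (0.12), the last pair being the beta-glucan receptor Dectin-1 and a scavenger receptor of macrophages. The closest to Tlr2 were Arg2 (0.14), H2-Q10 (0.16) and Ikbke (0.17). Those closest to Tlr6 were Mefv (0.11), Jun (0.12) and Irf2 (0.13), to Tlr1 Bcl6 (0.10), Col1a1 (0.10) and Abca1 (0.11), and to Tlr5 Il1rn (0.16), Ebi3 (0.18) and Il1a (0.18). Among endosomal receptors, Tlr8 was closest to Fcgr1 (0.092) and Fcgr2b (0.12), which encode Fc gamma receptors of myeloid cells, and Klra20 (0.12). Tlr7 was closest to Il12a (0.054), Ikbkg (0.068) and Map2k1 (0.081), and Tlr9 to Il17ra (0.10), Itga5 (0.10) and Cxcl16 (0.10).

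Markers of the cells that carry these receptors also differed between tumours. The 10 measured markers of monocytes and macrophages had a mean deviation of -0.21, 0.48, -0.14 and 0.094 in CXCL10 tumours, against -0.17, 0.15, -0.11 and -0.084 in vehicle tumours. CXCL10 tumour 2 was highest for these markers, as it was for Tlr4 and Tlr8. The 3 measured neutrophil markers (S100a8, Csf3r and Cxcr2) had a mean deviation of -0.44, -0.53, 0.19 and 0.36 in CXCL10 tumours, against 0.024, 0.77, -0.056 and -0.31 in vehicle tumours. CXCL10 tumour 2 was lowest and vehicle tumour 2 highest for the neutrophil markers. For Tlr2 these tumours were the lowest and the second highest. Tlr2, like Tlr4 and Tlr8 above, was picked after its values were seen. Of the panel, 34.3% of genes were highest and 2.6% lowest in CXCL10 tumour 2. The part of these cells in the levels of the receptor genes was not tested.

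Between groups, 7 of 10 markers of monocytes and macrophages were higher in CXCL10 tumours with a median of 0.063. Of the panel, 69.6% of genes were higher, with a median of 0.13. The median of these 10 markers was negative under the 3 other scalings. Their summed linear level was 10881 to 19178 in CXCL10 tumours and 10891 to 14090 in vehicle tumours. Neutrophil markers were lower in 3 of 3, with a median of -0.19 and sums of 3816 to 9271 in CXCL10 tumours and 5434 to 12066 in vehicle tumours. B cell markers, relevant to Tlr9 and Tlr7, were higher in 3 of 7, with a median of -0.057 and sums of 467.9 to 653.8 in CXCL10 tumours and 510.7 to 578.1 in vehicle tumours. Of the plasmacytoid dendritic cell list 4 of 7 were measured, with a median of 0.24 and sums of 3739 to 5039 in CXCL10 tumours and 2691 to 4032 in vehicle tumours, mostly from interferon-induced Bst2 and Irf7. Conventional dendritic cell markers (4 of 8 measured) had a median of 0.30 and sums of 725.3 to 989.8 in CXCL10 tumours and 707.8 to 819.4 in vehicle tumours. Under the 3 other scalings the median ran from 0.12 to 0.22 for conventional and from 0.11 to 0.16 for plasmacytoid dendritic cell markers, from -0.19 to -0.14 for B cell markers and from -0.30 to -0.27 for neutrophil markers. Limma called 0 members of these 5 lists after adjustment, and the lowest linear level of any of their markers was 5.83, for Marco in 1 vehicle tumour.

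The pathway around the receptors was read from a list of 91 genes, of which 83 were measured. Of all 693 genes, 69.6% were higher, with a median of 0.13. Limma called 1 of the 83 higher and 0 lower after adjustment over the panel, where 0.289% of the panel was called. The called gene was Il18r1, a chain of the interleukin-18 receptor, which like the Toll-like receptors signals through MyD88. It averaged 9.39 ± 0.025 in CXCL10 tumours and 8.80 ± 0.048 in vehicle tumours (SD, n = 4 each). The difference was 0.59 with an SE of 0.099, and limma gave an adjusted p of 0.0462. It stayed called in 2 of 18 other settings, 1 of which is a count filter that removed no gene (difference 0.48 to 0.61, adjusted p 0.0454 to 0.202) and lost the call when any 1 tumour was dropped. Its partner chain Il18rap, named after its value was seen, stood at 0.53 (SE 0.18, limma adjusted p = 0.182). The 6 receptors of the interleukin-1 and interleukin-18 family that use MyD88 had a median of 0.33, with 5 of 6 higher (0.21 to 0.26 under the other scalings, with 5 of 6 higher). T cells and NK cells carry the interleukin-18 receptor, and their markers were read beside it. The 9 T cell markers were higher in 9 of 9 (8 of 9 when scaled by median of ratios), with a median of 0.24 and summed linear levels of 2799 to 3438 in CXCL10 tumours and 2112 to 2920 in vehicle tumours. The 4 measured NK cell markers were higher in 4 of 4, with a median of 0.40 and sums of 1371 to 1938 in CXCL10 tumours and 1080 to 1493 in vehicle tumours. The other scalings put the medians at 0.13 to 0.16 for T cell markers and 0.26 to 0.32 for NK cell markers. Limma called 0 markers of either list, and their part in the level of Il18r1 was not tested.

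Directly below the receptors, the 17 measured adaptors and kinases ran from -0.24 to 0.35 with a median of 0.0088. Of them 9 were higher, 8 lower and 0 called, where the panel had 69.6% higher, 0.289% called and a median of 0.13. Tbk1, a kinase that activates IRF3, had the largest difference of them, 0.35 (SE 0.13, limma adjusted p = 0.195). Its groups did not overlap, which held for 1 of the 17 and for 10.8% of the panel. The 15 transcription factors and IKK genes had a median of 0.11, with 12 higher (0.0058 to 0.032, with 8 or 9 higher, under the 3 other scalings), including the kinase gene Chuk at 0.43 (limma adjusted p = 0.241) and Creb1 at 0.49 (0.363). The 7 negative regulators had a median of 0.16, with 6 higher (0.057 to 0.083, with 5 higher, under the other scalings). Tnfaip3, the NF-kB inhibitor A20, led them at 0.36 (SE 0.13, limma adjusted p = 0.195). Its groups did not overlap, which held for 1 of the 7 and for 10.8% of the panel. Among the 6 co-receptors, binding proteins and ligands, 2 were higher and 4 lower with a median of -0.16, from Lbp, the lipopolysaccharide-binding protein, at -0.52 to Hmgb1, a nuclear protein that can act as a ligand once released, at 0.49. Their limma adjusted p were 0.223 and 0.214. Under the 3 other scalings the median was -0.097 to -0.070 for the adaptors and kinases and -0.28 to -0.24 for the co-receptors.

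Of the 18 cytokine and chemokine genes that these pathways induce, 15 were higher (83.3%, where 69.6% of the panel was higher) with a median of 0.19, and 0 were called. Under the other scalings 13 or 14 were higher, with medians of 0.061 to 0.11. Ccl2, which draws monocytes, had the largest difference, 0.54 (SE 0.18, limma adjusted p = 0.185). Its groups did not overlap, which held for 1 of the 18 and for 10.8% of the panel. Interferon-induced genes lie below several Toll-like receptors as well as below interferons from any other source. They had 14 of 14 higher (13 of 14 with quantile normalization) and a median of 0.46 (0.35 to 0.38 under the other scalings). Limma called 0 of them after adjustment and gave 8 of the 14 an unadjusted p under 0.05, where 19.0% of the panel had one. Usp18 stood at 0.50 (SE 0.14) and Ifit1 at 0.94 (SE 0.28), both with a limma adjusted p of 0.167. The mean deviation of these 14 genes was -0.0077, 0.22, 0.27 and 0.50 in CXCL10 tumours, against -0.27, 0.11, -0.32 and -0.50 in vehicle tumours. CXCL10 tumour 4 was highest and vehicle tumour 4 lowest for them, as for Tlr3 and Myd88, picked after their values were seen. Of the 10 genes, 5 were highest in CXCL10 tumour 4 and 3 lowest in vehicle tumour 4. Of the panel, 33.3% and 18.0% were. A link of either gene to interferon was not tested.

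**Figure D5:**
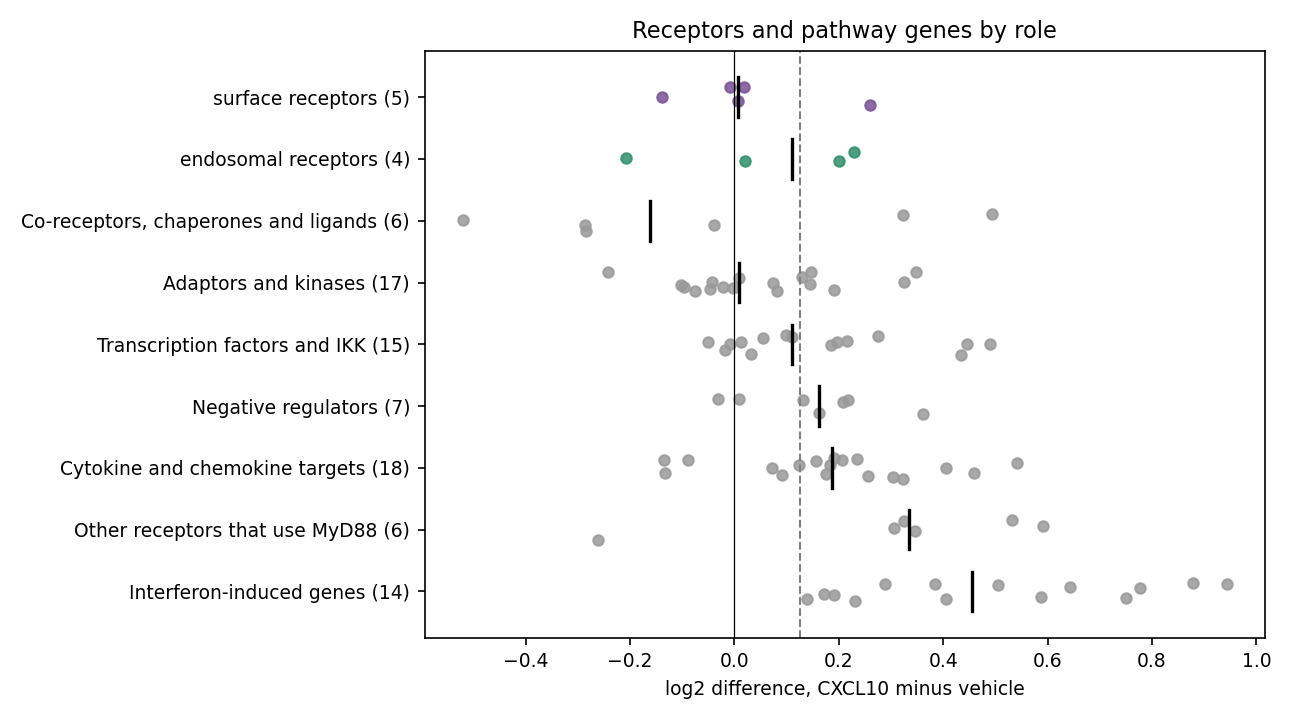
Log2 difference, CXCL10 minus vehicle (horizontal axis), of each measured gene in the receptor classes (purple, green) and in the pathway roles (grey), with the number of genes in brackets and the median as a black bar. The dashed line is the median of all 693 genes, 0.13. The receptors and the 17 adaptors and kinases lie on both sides of 0, and all 14 interferon-induced genes lie above it on this scaling (13 with quantile normalization).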

How the data were processed

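RNA from 8 whole tumours was read with a targeted probe panel. The deposited values used here are log2 normalized counts, 1 column per sample. The panel had 782 probes per the file headers, and the authors' flags mark 55 of 748 endogenous probes as pruned, none of them among the 10 genes, and 6 of 20 housekeeping genes as used in normalization. A percent coefficient of variation for each probe was deposited too. The instrument and its software are not given in the material used here. Another 16 value columns, named by lane and matching none of the labels, were left unused, so probe background from negative controls was not assessed.

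Taken out of log2, the values of each tumour were whole multiples of 1 step (100% within 0.02 counts). From these counts the deposited coefficient of variation was recovered to within 0.02 percentage points for 693 of 693 genes. The depth is therefore known, and counting errors are from these counts and cover counting error only.

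Groups were taken from the titles. Log2 values of all 693 genes were fitted by group alone in limma 3.58.1 (lmFit, eBayes; R 4.3.3), p adjusted after Benjamini-Hochberg over the panel at a threshold of 0.05. Exact permutation tests used all 70 splits of the tumours. The fit was tested on simulated data. No set test was run. Named genes are the 10 members, the gene of smallest p and of largest difference per pathway role, the marker of smallest p per cell type, the 3 closest profiles per member and called genes, and lists of 5 or fewer in full. The members and lists were chosen with earlier results of these data known. Alternatives covered scaling, variance model, pseudocounts, count filters, a replicate block and leaving out each tumour. Promoter windows are RefSeq's.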

Additional observations from a re-analysis of the deposited data

Results flagged for a closer look

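Among 120 sets of 4 values checked (60 named genes in 2 groups), 1 had a tumour standing far from the other 3, where chance gives about 1 in 20. Vehicle tumour 2 was high for Mefv, the pyrin gene and the closest profile to Tlr6, with 9.63 on the log2 scale where the other 3 vehicle tumours had 9.00 to 9.10. None of the 10 receptor and adaptor genes met that rule in either group, although vehicle tumour 2 was also the highest of all 8 for Tlr6.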

How the results depend on the processing

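Of the 10 genes 0 were called in the main setting and under all 19 alternatives. The panel count of called genes was 2 in the main setting, 2 with a pseudocount of 1 or a filter at 20 counts in at least 4 tumours (which removed no gene), 1 with quantile normalization, and 0 with scaling by median of ratios, centring on the panel median, a mean-variance trend, voom weights, a pseudocount of 10, a filter at 50 counts or the replicate block. With 1 tumour left out it was 0, except without vehicle tumour 2, where it was 5 (Cd207, Cd69, Cd96, Clu and Slamf1). Tlr1, Tlr3, Tlr4, Tlr7, Tlr9 and Myd88 kept their direction under the 14 alternatives that can move a difference. The mean-variance trend, both count filters, the replicate block and the permutation test leave it as it is. Tlr5, Tlr6 and Tlr8 turned negative when scaled by median of ratios (-0.087, -0.098 and -0.084), with centring on the panel median (-0.061, -0.072 and -0.059) and quantile normalization (-0.13, -0.12 and -0.051). With tumours left out the difference ran from -0.18 to 0.16 for Tlr2, -0.083 to 0.21 for Tlr5, -0.061 to 0.16 for Tlr6 and -0.13 to 0.15 for Tlr8, and the cause was not tested. The replicate block left the count for the 10 genes at 0 (lowest adjusted p = 0.319), and 1 of 4 CXCL10 and 2 of 4 vehicle tumours correlated best with their own number. Same-numbered tumours of the groups had correlations of deviations from -0.32 to 0.25, over 0.1 in 2 of 4 pairs. With so few tumours this neither shows nor excludes a pairing by number, and the main fit used none. The deposited count columns match no sample by name. The counts recovered from the levels were used with voom weights, but the count tests edgeR and DESeq2 were not run on either. Depth limits Tlr5 most, at 40 to 71 counts.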
